A study of Mus musculus with 10 samples.

Results

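Pericytes and vascular smooth muscle cells, together called mural cells, form the outer cell layer of brain blood vessels, and 10 genes that mark them were followed in the mouse hippocampus after subarachnoid haemorrhage (SAH). The genes were chosen by name, as known mural cell markers, with earlier results of these data known. All 10 were among the 24391 gene names in the count files. RNA sequencing was done on male mice, of a strain written C56BL/6J in the study's methods and read here as C57BL/6J, aged 10 to 14 weeks, with the whole hippocampus of both sides of each mouse giving 1 library. In the SAH group (mice 1 to 4) a filament perforated the circle of Willis, in the Sham group (mice 5 to 7) the filament was advanced without perforation, and the Naive group (mice 8 to 10) had no surgery. Tissue was taken on day 4, the labels name no drug treatment, surgery was done under isoflurane anaesthesia, and SAH mice were kept only if cerebral blood flow fell enough at perforation. The 6 Sham and Naive mice were pooled as control for the main comparison.

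Pericytes sit on capillaries and share their basement membrane with the endothelium. They are recruited to vessels by platelet-derived growth factor from endothelial cells acting on the receptor PDGFRB. Smooth muscle cells ring the arteries and arterioles, need NOTCH3 signalling for their maturation, and carry the contractile proteins that set vessel diameter, most of whose genes are switched on by serum response factor through a DNA element called the CArG box. The 10 genes were accordingly read as 6 receptor, G protein regulator, channel, enzyme and matrix genes (Pdgfrb, Notch3, Rgs5, Abcc9, Anpep, Vtn) and 4 contractile genes (Acta2, Tagln, Myh11, Cnn1).

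The 4 contractile genes and Vtn, which encodes the secreted adhesion protein vitronectin, had the largest differences between SAH and control mice. Acta2, Tagln, Myh11 and Vtn rose, by 1.45- to 1.92-fold, at an adjusted p under 0.10 (edgeR's quasi-likelihood test, Benjamini-Hochberg over the 14993 genes tested). With the Sham mice alone as control, 0 of the 10 passed, at adjusted p of 0.186 to 0.426 for these 4 genes. The share of all tested genes that passed in that fit was not counted. None of the 10 fell. The remaining genes, Pdgfrb, Notch3, Rgs5, Abcc9, Anpep and Cnn1, had positive differences that did not pass the test. So 4 of the 10 genes passed upwards, against 3.13% of all tested genes, and 0 passed downwards, against 1.54%, as all 10 differences were above 0. The median log2 difference was 0.52 for the 10 genes and -0.002 for all tested genes. It was 0.87 for the 4 contractile genes, of which 3 passed, and 0.29 for the other 6, of which 1 passed. These comparisons are description only, as the genes were chosen with earlier results of these data known. In bulk tissue, more cells of a type and more RNA per cell cannot be told apart.

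Promoter sequence is shown for Acta2, Cnn1 and Vtn because they were among the genes with the largest differences in SAH mice, Cnn1 without passing the test, and the contractile genes are known targets of serum response factor. RefSeq entries of the mouse build GRCm38.p6 were matched for 7 of the 10 genes, with no entry for Pdgfrb, Tagln and Myh11. Each sequence is the 250 bases before the annotated start, 5′ to 3′ on the gene's strand, and capitals mark CArG-like elements in which a single inner base is C or G.
Acta2, chr19:34255374-34255623, minus strand: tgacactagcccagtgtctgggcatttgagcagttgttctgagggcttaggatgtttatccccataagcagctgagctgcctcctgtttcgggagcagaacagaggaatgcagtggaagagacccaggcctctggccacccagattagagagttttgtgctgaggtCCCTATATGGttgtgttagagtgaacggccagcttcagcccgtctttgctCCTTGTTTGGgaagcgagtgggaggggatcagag
Cnn1, chr9:22099003-22099252, plus strand: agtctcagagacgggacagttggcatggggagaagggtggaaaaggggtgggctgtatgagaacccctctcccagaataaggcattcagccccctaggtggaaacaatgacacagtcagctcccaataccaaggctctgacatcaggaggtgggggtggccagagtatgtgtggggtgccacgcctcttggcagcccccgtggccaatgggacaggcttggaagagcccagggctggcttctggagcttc
Vtn, chr11:78498870-78499119, plus strand: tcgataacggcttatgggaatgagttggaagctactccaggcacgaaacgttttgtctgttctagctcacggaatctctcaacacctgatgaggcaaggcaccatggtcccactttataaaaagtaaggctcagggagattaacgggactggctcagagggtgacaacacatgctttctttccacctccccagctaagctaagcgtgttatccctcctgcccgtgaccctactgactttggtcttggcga
The exact CArG box was found in 0 of the 7 promoters on either strand, and in 1.47% of the 32851 promoters of the RefSeq set. The CArG-like form was found in Acta2 alone, which held 2 copies, CCCTATATGG at 84 to 75 bases and CCTTGTTTGG at 34 to 25 bases before the start. Of all promoters in that set, 7.24% held at least 1 CArG-like element and 0.548% held 2 or more. The hexamer TGGGAA, the core letters bound by the Notch effector RBPJ, was also searched on both strands. It was found in Acta2 at 27 to 22 bases before the start, overlapping the nearer CArG-like element, in Vtn at 236 to 231 and in Abcc9 at 221 to 216. Of all promoters in the set, 21.6% held it. The CArG-like form was searched after the exact search had found no match. A match is only a match of letters.

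Levels are given per mouse as CPM, the gene's read counts per 1000000 counts of the library, scaled by edgeR's trimmed mean of M values. Acta2 encodes the smooth muscle actin and lies on chromosome 19 (mm9 34314826 to 34329863, minus strand). It measured 16.0, 16.7, 13.1 and 25.2 CPM in SAH mice 1 to 4. It measured 10.1, 12.4 and 10.9 CPM in Sham mice 5 to 7, and 9.78, 10.5 and 8.45 CPM in Naive mice 8 to 10. Every SAH mouse was above every control mouse, with SAH mouse 4 well above the others and SAH mouse 3 nearest to control. The mean was 17.8 ± 5.21 CPM in SAH (SD, n = 4) and 10.4 ± 1.29 CPM in control (SD, n = 6), a log2 fold change of 0.78 (SE 0.15, edgeR adjusted p = 0.0139).

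Tagln encodes transgelin, an actin-binding protein of smooth muscle, and lies on chromosome 9 (mm9 45737711 to 45744141, minus strand). Its levels were 8.80, 8.31, 6.06 and 10.2 CPM in SAH mice 1 to 4, 4.21, 4.93 and 4.87 CPM in the Sham mice and 4.18, 4.63 and 3.35 CPM in the Naive mice. The groups did not overlap, and the order of the SAH mice at the ends was that of Acta2, with mouse 4 highest and mouse 3 lowest. The log2 fold change was 0.94 (SE 0.14, edgeR adjusted p = 0.00375), the largest of the 10 genes in this comparison. Acta2 and Tagln were the only ones of the 10 with every SAH mouse above every control mouse, a pattern held by 2.83% of all tested genes.

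Myh11 encodes the heavy chain of smooth muscle myosin, the motor that pulls on Acta2 filaments, and lies on chromosome 16 (mm9 14194620 to 14291501, minus strand). It measured 11.5, 13.4, 14.5 and 24.9 CPM in SAH mice 1 to 4, 7.84, 11.7 and 7.85 CPM in the Sham mice and 7.75, 9.57 and 7.22 CPM in the Naive mice. SAH mouse 4 stood far above all others, and SAH mouse 1 was just below Sham mouse 6. The log2 fold change was 0.90 (SE 0.19, edgeR adjusted p = 0.0258) and it was 0.60 without SAH mouse 4, still past the threshold.

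Cnn1 encodes calponin, an actin-binding regulator of smooth muscle contraction, and lies on chromosome 9 (mm9 21903697 to 21913665, plus strand). It was the least expressed of the 10, with 9 to 19 read counts in the SAH mice, 11 to 13 in the Sham mice and 3 to 9 in the Naive mice. Its levels were 0.822, 0.699, 0.455 and 0.640 CPM in SAH mice 1 to 4, 0.454, 0.441 and 0.523 CPM in the Sham mice and 0.339, 0.257 and 0.127 CPM in the Naive mice. The Sham mice lay between the others, and SAH mouse 3 fell within the Sham range. The log2 fold change against control was 0.85, close to that of Myh11, but its SE was 0.32 and the test was not passed (edgeR adjusted p = 0.187).

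**Figure D1:**
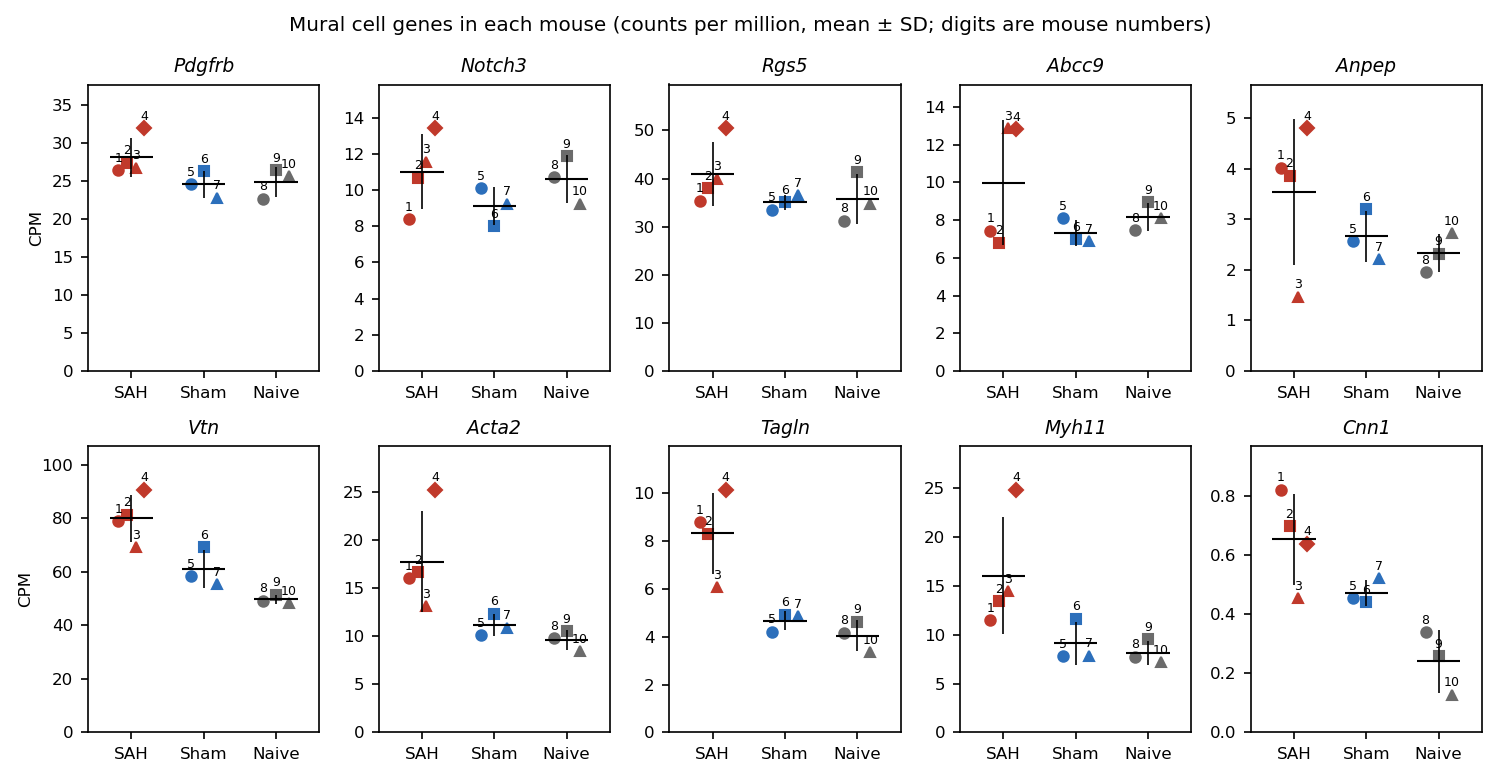
Level of each of the 10 mural cell genes in each mouse, in CPM on a linear axis from 0, with SAH, Sham and Naive side by side (points are mice with their numbers, horizontal bars the group mean, vertical bars ± SD). Acta2 and Tagln show no overlap between SAH and the other groups, and SAH mouse 4 is the highest point in 8 of the 10 panels.

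Vtn, on chromosome 11 (mm9 78312622 to 78315827, plus strand), was the most abundant of the 10 genes. It measured 78.9, 81.4, 69.2 and 90.7 CPM in SAH mice 1 to 4, 58.5, 69.2 and 55.4 CPM in the Sham mice and 49.2, 51.5 and 48.4 CPM in the Naive mice. The group means were ordered SAH, Sham, Naive, with every Sham mouse above every Naive mouse, and SAH mouse 3 and Sham mouse 6 were nearly equal. The log2 fold change against control was 0.53 (SE 0.10, edgeR adjusted p = 0.00961).

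Pdgfrb, the receptor that recruits pericytes, lies on chromosome 18. It measured 26.4, 27.4, 26.7 and 31.9 CPM in SAH mice 1 to 4, 24.6, 26.3 and 22.8 CPM in the Sham mice and 22.7, 26.4 and 25.6 CPM in the Naive mice. SAH mouse 1 was just below the highest control mouse, mice 2 and 3 were slightly above it, and mouse 4 was clearly above. The log2 difference was 0.19 (SE 0.07, edgeR adjusted p = 0.185), which did not pass the test, and 0.12 without SAH mouse 4.

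Rgs5, on chromosome 1 (mm9 171585632 to 171623657, plus strand), speeds the shut-off of G proteins that drive contraction and is among the most used pericyte markers. It measured 35.4, 38.0, 40.0 and 50.5 CPM in SAH mice 1 to 4, 33.6, 35.1 and 36.6 CPM in the Sham mice and 31.2, 41.4 and 34.8 CPM in the Naive mice. Only SAH mouse 4 was outside the control range. The log2 difference was 0.21 (SE 0.10, edgeR adjusted p = 0.271), and 0.10 without SAH mouse 4.

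Notch3, the Notch receptor of mural cells, on chromosome 17 (mm9 32257838 to 32303797, minus strand), measured 8.41, 10.7, 11.6 and 13.4 CPM in SAH mice 1 to 4. It measured 10.1, 8.02 and 9.25 CPM in the Sham mice and 10.7, 11.9 and 9.25 CPM in the Naive mice. Only SAH mouse 4 was outside the control range, and the log2 difference of 0.17 (SE 0.13, edgeR adjusted p = 0.536) was the smallest of the 10. It was 0.06 without SAH mouse 4 and 0.27 without SAH mouse 1.

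Abcc9, on chromosome 6 (mm9 142536382 to 142650794, minus strand), encodes the sulfonylurea receptor subunit of the ATP-sensitive potassium channel of mural cells. It measured 7.45, 6.80, 12.9 and 12.8 CPM in SAH mice 1 to 4, 8.09, 6.99 and 6.88 CPM in the Sham mice and 7.48, 8.95 and 8.11 CPM in the Naive mice. SAH mice 3 and 4 lay far above all others, while mouse 2 was the lowest of the 10 mice and mouse 1 was within the control range. The log2 difference was 0.37 (SE 0.17, edgeR adjusted p = 0.299) and passed the threshold once SAH mouse 2 was left out, at 0.52. It was 0.23 without SAH mouse 3, 0.21 without SAH mouse 4, and below 0, at -0.15, without these and Sham mouse 7. The summed CPM of 15 endothelial markers showed the same split, at 265 and 321 in SAH mice 1 and 2, 486 and 480 in mice 3 and 4 and 229 to 323 in control, and its part in the Abcc9 values was not tested.

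Anpep, on chromosome 7 (mm9 86966689 to 86987238, minus strand), encodes aminopeptidase N, also known as CD13, a surface peptidase of pericytes. It measured 4.01, 3.86, 1.47 and 4.80 CPM in SAH mice 1 to 4, 2.56, 3.20 and 2.21 CPM in the Sham mice and 1.96, 2.31 and 2.72 CPM in the Naive mice. Of the SAH mice, 1, 2 and 4 were above every control mouse, and mouse 3 was the lowest of all, on 29 read counts. The log2 difference was 0.52 (SE 0.25, edgeR adjusted p = 0.304), and without SAH mouse 3 it was 0.76 and past the threshold. Without SAH mouse 4 it was 0.33.

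Between genes, levels were compared in TPM, the share of transcripts after division by gene length. In control mice Vtn had the highest level, with a mean of 94.3 TPM, then Rgs5 with 58.2 TPM, and both stood clear of the next gene. Pdgfrb (13.6 TPM) and Acta2 (11.97 TPM) overlapped, and Tagln followed at 8.17 TPM. Myh11 (3.88 TPM), Notch3 (3.70 TPM) and Abcc9 (3.06 TPM) each overlapped with the next in order, Anpep followed Abcc9 at 2.17 TPM, and Cnn1 was last at 0.534 TPM, clear of Anpep. In SAH mice Acta2 reached 20.5 TPM and Tagln 15.6 TPM, beside 15.4 TPM for Pdgfrb. The ratio of Acta2 to Pdgfrb within a mouse was 1.31 ± 0.26 in SAH (SD, n = 4, range 1.03 to 1.66) and 0.883 ± 0.114 in control (SD, n = 6, range 0.693 to 1.01), with no overlap between the groups. The ratio of Acta2 to Rgs5 overlapped, with 0.231 to 0.351 in SAH and 0.171 to 0.247 in control.

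**Figure D2:**
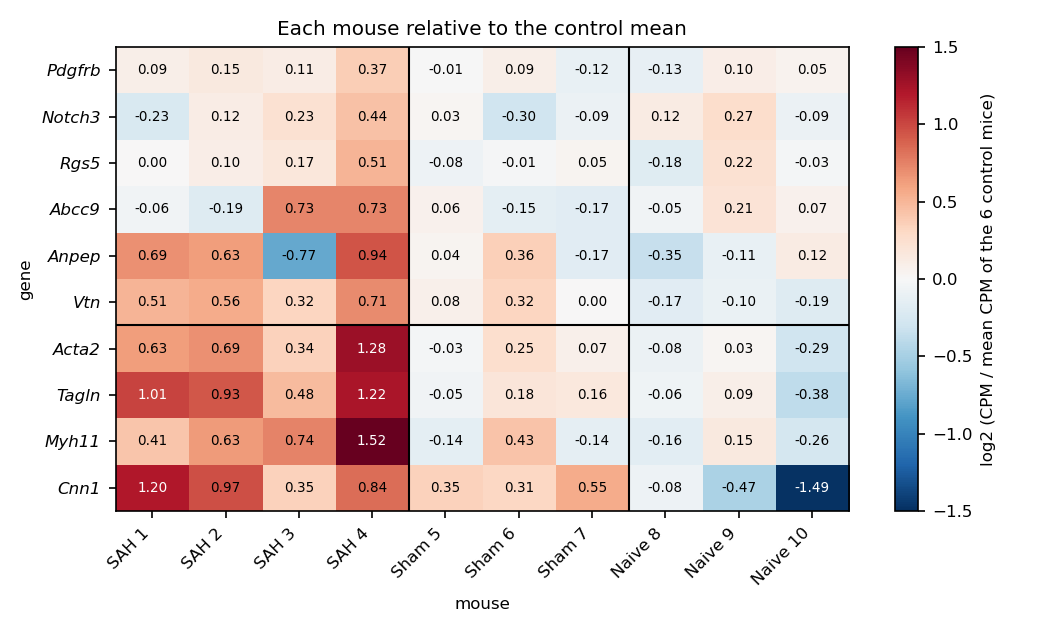
Heat map of the 10 genes (rows) in the 10 mice (columns), as log2 of the CPM over the mean CPM of the 6 control mice, with red above and blue below that mean. The contractile genes, below the horizontal line, are above the control mean in all 4 SAH mice, while Abcc9 and Anpep divide the SAH mice.

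The SAH mice were not alike. The mean log2 difference of the 4 contractile genes from their control mean was 0.80, 0.80, 0.49 and 1.21 in SAH mice 1 to 4 and ranged from -0.47 in Naive mouse 10 to 0.31 in Sham mouse 6 among the controls. The same mean over the other 6 genes was 0.17, 0.23, 0.15 and 0.62 in SAH mice 1 to 4 and ranged from -0.12 to 0.11 in control. SAH mouse 4 was therefore highest in both groups of genes, and was the highest of all 10 mice for 8 of the 10 genes. With each of the 10 mice left out in turn, the log2 fold changes stayed at 0.47 to 0.61 for Vtn, 0.56 to 0.90 for Acta2, 0.83 to 1.06 for Tagln and 0.60 to 1.03 for Myh11, past the threshold each time.

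**Figure D3:**
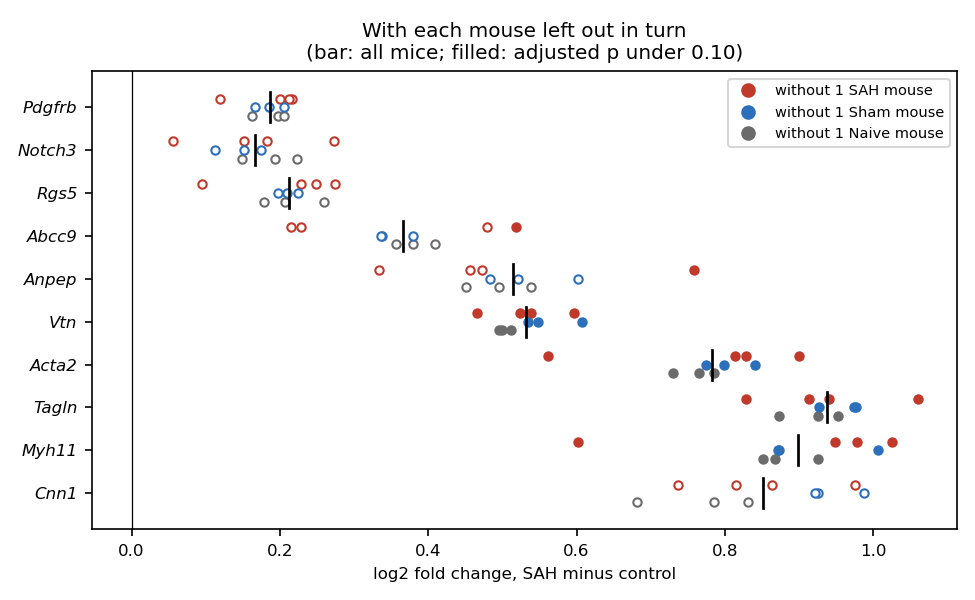
Log2 fold change of each gene, SAH minus control, with each mouse left out in turn (points coloured by the group of the mouse left out, filled where the adjusted p was under 0.10, black bars for all 10 mice). Vtn, Acta2, Tagln and Myh11 are filled throughout, and Abcc9 and Anpep are each filled once.

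Comparing SAH with Sham asked what bleeding added to the surgery. Only Tagln rose, with a log2 fold change of 0.84 (SE 0.17, edgeR adjusted p = 0.0688), so 1 of the 10 genes passed, against 0.547% of all tested genes. The differences of the other genes that passed against control were 0.39 for Vtn (adjusted p = 0.107), 0.68 for Acta2 (adjusted p = 0.179) and 0.82 for Myh11 (adjusted p = 0.228), in edgeR. With each mouse left out these ran from 0.33 to 0.49 for Vtn, 0.46 to 0.80 for Acta2 and 0.52 to 1.04 for Myh11. Acta2, Tagln and Pdgfrb had every SAH mouse above every Sham mouse, which 5% of all tested genes did. The call for Tagln was lost (adjusted p = 0.186) when the Naive mice were left out of the fit, and also without SAH mouse 4 or Sham mouse 5, 6 or 7 (log2 fold changes of 0.73 to 0.96 with each mouse left out), and the count of genes then ran from 0 to 3. DESeq2 called 4 of the 10 genes, Vtn, Acta2, Tagln and Myh11, in the same comparison, and 1.98% of all genes in either direction.

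Against Naive mice, 5 of the 10 genes rose, Vtn and all 4 contractile genes, against 1.99% of all tested genes. The log2 fold changes were 0.69 for Vtn (SE 0.09, edgeR adjusted p = 0.00319), 0.90 for Acta2 (SE 0.19, adjusted p = 0.0319) and 1.05 for Tagln (SE 0.17, adjusted p = 0.00993). For Myh11 it was 0.98 (SE 0.25, adjusted p = 0.0720) and for Cnn1 1.41 (SE 0.36, adjusted p = 0.0771), on 3 to 9 counts in the Naive mice. The call for Cnn1 was lost in DESeq2 (adjusted p = 0.131), in the fit without the Sham mice (adjusted p = 0.158) and with 6 of 7 mice left out singly, all but SAH mouse 3, and those for Acta2 and Myh11 were lost without any 1 of the 3 Naive mice. All 5 had every SAH mouse above every Naive mouse, a pattern of 6.98% of all tested genes. This comparison and the one with Sham share the SAH mice. Against Naive, 1 of 12 choroid plexus markers, Ttr, passed, their median log2 difference was 2.23, and 9 of the 12 had every SAH mouse above every Naive mouse. Of 11 tested fibroblast markers, 10 passed, with a median of 1.42, and 9 had no overlap in the same direction. The part of these tissues in the differences of the 5 genes from Naive was not tested.

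Comparing Sham with Naive asked what surgery without bleeding did. None of the 10 genes passed in edgeR or DESeq2, which called 0.00667% and 0.0133% of all tested genes, and 2 of the 10 had an unadjusted p under 0.05, as did 2% of all tested genes. These members were Vtn, with a log2 difference of 0.30 (SE 0.10), and Cnn1, with 0.94 (SE 0.39), each at an adjusted p of 1 in edgeR. Both had every Sham mouse above every Naive mouse, which 4.83% of all tested genes did. Of the 11 tested fibroblast markers all were above 0 between Sham and Naive, with a median log2 difference of 0.40, 7 had every Sham mouse above every Naive mouse, and the 1 gene edgeR called was Slc13a4 of this list. All 12 choroid plexus markers were above 0, with a median of 1.62, and 2 had every Sham mouse above every Naive mouse. Their summed level was 520, 273 and 1539 CPM in Sham mice 5 to 7 and 265 to 304 CPM in Naive mice. The part of either tissue was not tested. The log2 differences of Acta2, Tagln and Myh11 were 0.22 (SE 0.20), 0.21 (SE 0.19) and 0.17 (SE 0.27), and those of Pdgfrb and Rgs5 were -0.02 (SE 0.09) and -0.03 (SE 0.13).

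**Figure D4:**
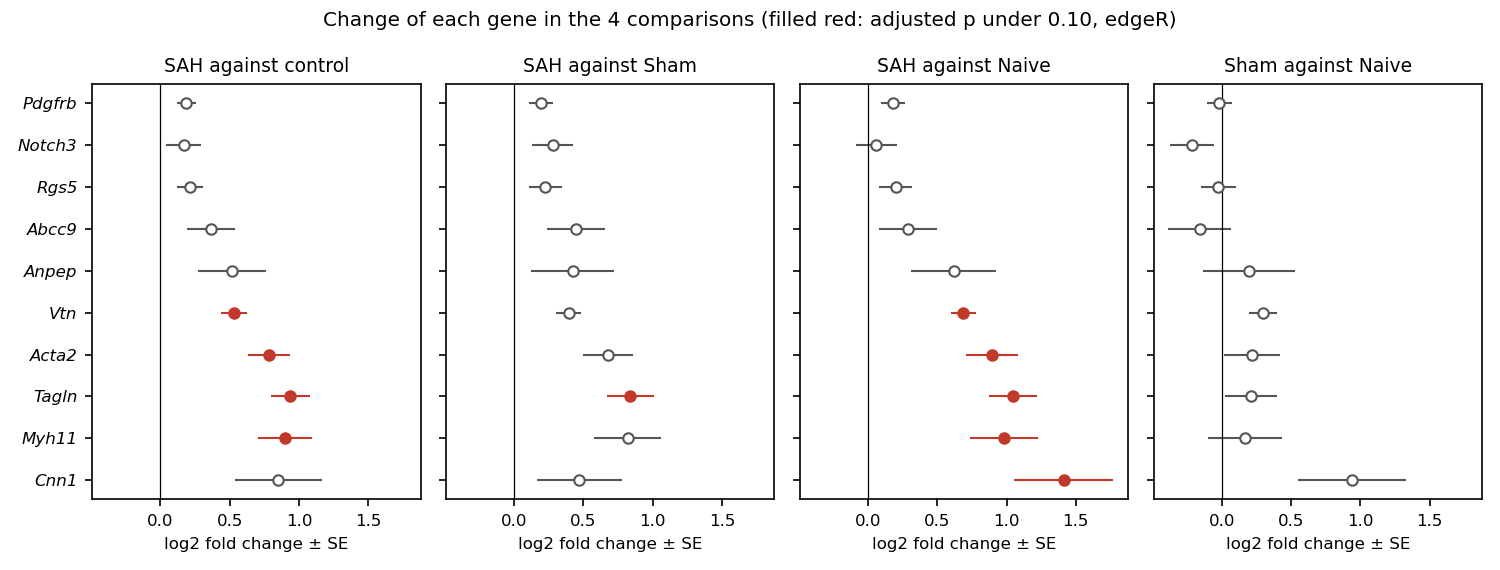
Log2 fold change ± SE of the 10 genes in the 4 comparisons (horizontal axis, the first-named group minus the second; filled red points have an adjusted p under 0.10 in edgeR). All 10 genes lie to the right of 0 in every comparison that holds SAH mice, with 4, 1, 5 and 0 filled points from left to right.

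Genes that work with these 10 were read from lists. Of 20 other smooth muscle contractile genes, 19 were tested, 7 rose, 1 fell and 11 did not pass, with a median log2 difference of 0.31. Myl9, the regulatory light chain that partners Myh11, rose by a log2 of 0.52 (SE 0.08, edgeR adjusted p = 0.00375) and Mylk, the kinase that activates it, rose by 0.34 (SE 0.08, adjusted p = 0.0320). Cald1 (caldesmon) and Tpm4 (a tropomyosin) each rose by 0.31. Larger rises were seen in the low-level genes Lmod1, an actin nucleator of smooth muscle (1.12, SE 0.22), Pln, the regulator of the calcium pump of muscle stores (1.10, SE 0.27), and Mustn1 (1.01, SE 0.22), all of which had means under 2 CPM. Ppp1r14a, an inhibitor of myosin phosphatase that is also expressed outside vessels, fell by 0.37 on the log2 scale (SE 0.10, adjusted p = 0.0790). That call was lost when SAH mouse 3 or 4, Sham mouse 6 or 7 or any Naive mouse was left out (-0.42 to -0.31 with each mouse left out), and the call for Pln without SAH mouse 4, Sham mouse 6 or Naive mouse 8 or 10 (0.90 to 1.27). Those for Mylk (0.33) and Mustn1 (0.88) were lost without SAH mouse 4. In the comparison with Sham 3 of the 19 rose, Myl9, Mylk and Mustn1, and 0 fell.

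Acta2, Tagln, Myh11 and Cnn1 have relatives in other cell types, and of their 10 tested paralogs Cnn2, a broadly expressed calponin, rose, by a log2 of 0.71 (SE 0.13, edgeR adjusted p = 0.00848). It was the 1 paralog called by edgeR, where 3 had an unadjusted p under 0.05, and DESeq2 called 3. Reads shared with such relatives are few by sequence, since 0.404% of the stretches of 50 bases in Acta2 also occur in Actg1 and 0.395% of those in Myh11 in Myh9 or Myh10. In the list of 9 tested regulators of mural cells, Foxc1 and Tbx18, transcription factors of mural cells and of the meninges, rose by 0.71 (SE 0.11) and 1.02 (SE 0.18) on the log2 scale, and 1 of the 9, Foxc1, passed in the comparison with Sham. Srf, which encodes serum response factor, had a log2 difference of -0.10 (SE 0.04, adjusted p = 0.243). Every SAH mouse was below every control mouse, at 61.56 to 65.06 CPM in SAH and 65.11 to 73.17 CPM in control. The share of all tested genes with that pattern was not counted.

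Signalling partners were read next. Of the 5 genes of platelet-derived growth factor signalling beside Pdgfrb, 1 passed in edgeR, the PDGFRB ligand Pdgfd, which rose by a log2 of 0.57 (SE 0.15, adjusted p = 0.0661). This call was lost when SAH mouse 3 or 4, Sham mouse 6 or any Naive mouse was left out (0.50 to 0.66 with each mouse left out). Pdgfb, the endothelial ligand, had a difference of 0.19 (SE 0.07, adjusted p = 0.192). None of 13 Notch pathway genes passed in edgeR, where 5 had an unadjusted p under 0.05, while DESeq2 called 3. Over all tested genes, 17% had such a p in edgeR and DESeq2 called 6.87%. The log2 differences were 0.20 for the receptor Notch2 (SE 0.06, adjusted p = 0.107) and -0.05 for the target Hey1 (SE 0.05), the most abundant of the list. None of the 3 channel partners of Abcc9 passed in edgeR or DESeq2 or had an unadjusted p under 0.05, and Kcnj8, the pore subunit that pairs with it in mural cells, had a log2 difference of -0.04 (SE 0.17). None of 4 other genes of the Rgs family passed in edgeR, where 1 had an unadjusted p under 0.05, and DESeq2 called 1. The log2 difference was -0.31 for Rgs4 (SE 0.09, adjusted p = 0.112). It ran from -0.39 to -0.19 with each mouse left out, and passed the threshold without SAH mouse 1 or 2.

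A further list of 14 pericyte markers held changes in both directions. Of these, 3 rose, 1 fell and 10 did not pass, with a median log2 difference of 0.04, and their summed level was 112 to 132 CPM in SAH and 112 to 118 CPM in control. Those that rose were Ifitm1, an interferon-induced membrane protein (1.37, SE 0.23), Slc6a20a, an amino acid transporter (0.90, SE 0.18), and Ecm2, a matrix protein (0.39, SE 0.11), whose call was lost without SAH mouse 2 or 4, Sham mouse 5 or any Naive mouse (0.32 to 0.47 with each mouse left out). Mcam, the adhesion molecule CD146, fell by 0.49 on the log2 scale (SE 0.10, edgeR adjusted p = 0.0181), and its groups did not overlap, at 17.1 to 24.5 CPM in SAH and 26.5 to 34.2 CPM in control. In the comparison with Sham none of the 14 passed in edgeR, Mcam being at an adjusted p of 0.202.

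Some markers of other cells also differed between SAH and control. Of 11 tested meningeal and perivascular fibroblast markers, 10 rose, with a median log2 difference of 1.13, namely Ogn (1.38), Col3a1 (1.38), Slc13a4 (1.25), Col1a2 (1.22), Slc22a6 (1.17), Lum (1.13), Mgp (1.05), Aldh1a2 (0.98), Col1a1 (0.91) and Slc6a13 (0.90). Of these calls, 3 were lost with single mice left out, those of Slc13a4 (3 mice, SAH mouse 4 and Naive mice 8 and 10), Slc22a6 (7 mice, all but SAH mouse 3 and Sham mice 6 and 7) and Slc6a13 (8 mice, all but SAH mouse 3 and Sham mouse 6). Their summed level was 242, 243, 138 and 194 CPM in SAH mice 1 to 4, 124 to 152 CPM in Sham and 109 to 115 CPM in Naive mice. SAH mouse 3, the lowest of the SAH mice in this sum and within the Sham range, was also the lowest of them for Acta2, Tagln, Cnn1, Vtn and Anpep, but the highest for Abcc9. SAH mouse 4, the highest for 8 of the 10 genes, was below SAH mice 1 and 2 in the sum. In the comparison with Sham 4 of the 11 fibroblast markers passed, with a median of 0.83.

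Of 15 endothelial markers 6 rose, with a median log2 difference of 0.44, namely Vwf (1.43, SE 0.20), Cdh5 (0.84, SE 0.13), Flt1 (0.79, SE 0.23), Abcb1a (0.71, SE 0.16), Pecam1 (0.70, SE 0.16) and Tie1 (0.58, SE 0.17). The calls for Pecam1 (0.56) and Abcb1a (0.55) were lost without SAH mouse 4. Those for Tie1 (0.35 to 0.71 with each mouse left out) and Flt1 (0.56 to 0.98) were lost without SAH mouse 4, any Sham mouse or Naive mouse 8 or 10, and that for Flt1 also without SAH mouse 3, and 2 of the 15 markers passed in the comparison with Sham. Of 12 microglia and macrophage markers 6 rose, namely Lyz2 (1.77, SE 0.12), Cd163 (1.51, SE 0.24), Ms4a7 (1.44, SE 0.36), Mrc1 (1.06, SE 0.19), Cd68 (0.30, SE 0.08) and Csf1r (0.29, SE 0.06), and the list median was 0.29. The call for Csf1r was lost without SAH mouse 4, that for Ms4a7 without SAH mouse 4, Sham mouse 5 or Naive mouse 8 or 9, and that for Cd68 when any mouse other than SAH mouse 1 or 2 was left out. The 6 that did not pass are all given after their values were seen. Their log2 differences were 0.30 for Cd14 (0.14 to 0.41 with each mouse left out), 0.23 for Aif1 (0.15 to 0.31) and 0.18 for Itgam (0.09 to 0.22). Those of Tmem119, P2ry12 and Cx3cr1 were 0.08, -0.05 and -0.06. The summed level of the 12 microglia and macrophage markers was 313 to 378 CPM in SAH and 277 to 314 CPM in control. None of the 12 choroid plexus markers passed in edgeR or DESeq2, 3 had an unadjusted p under 0.05, and all 12 had log2 differences above 0. Their summed level ran from 350 to 2101 CPM in SAH and from 265 to 1539 CPM in control, with SAH mice 3 and 4 and Sham mouse 7 high. No marker of these 4 cell types was at 0 in every mouse. The part of these cells in the changes of the 10 genes was not tested.

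Without SAH mice 3 and 4 and Sham mouse 7, a choice made after seeing the data, 3 of the 10 genes passed, Vtn at a log2 of 0.53, Acta2 at 0.67 and Tagln at 1.01, and Myh11 was at 0.51 (edgeR adjusted p = 0.167). Skeletal and cardiac muscle markers summed to 7.54 to 9.14 CPM in SAH and 6.88 to 10.7 CPM in control, 1 of the 7 was at 0 in every mouse and none of the 3 tested passed in edgeR or DESeq2 or had an unadjusted p under 0.05. The 12 hippocampal neuron markers summed to 5144 to 5326 CPM in SAH and 5018 to 5315 CPM in control. Of these, 1 rose, C1ql2 (0.34, SE 0.09). Its call was lost without SAH mouse 3 or 4, Sham mouse 5 or any Naive mouse (0.25 to 0.40 with each mouse left out). Of 6 astrocyte markers Gfap rose, by a log2 of 1.00 (SE 0.16, edgeR adjusted p = 0.00535), with no overlap between the groups.

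**Figure D5:**
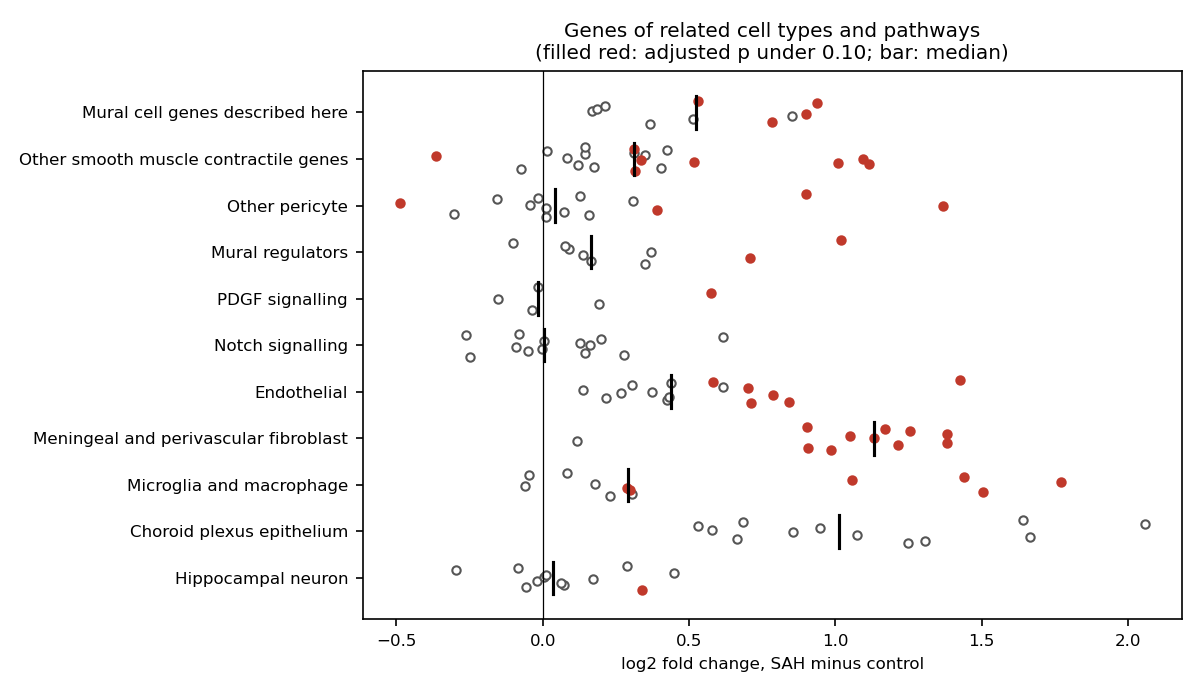
Log2 fold change, SAH minus control, of every tested gene of the 10 mural cell genes and of 10 lists of related genes (each point a gene, filled red where the adjusted p was under 0.10 in edgeR, vertical bars the list median). The median is 0.52 for the mural cell genes, 0.31 for other contractile genes, 0.04 for other pericyte markers and 1.13 for fibroblast markers.

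Over the 10 mice, the tested genes whose log2 CPM followed the mean of the 4 contractile genes most closely were Serpinf1 (Pearson r = 0.956), Col18a1 (r = 0.952), Slc6a20a (r = 0.941), Serping1 (r = 0.931) and Gbp6 (r = 0.930). Col18a1 encodes a basement membrane collagen, Serpinf1 and Serping1 secreted protease inhibitor family proteins and Gbp6 an interferon-induced GTPase. Those closest to the mean of the other 6 genes were Slfn8 (r = 0.968), Sp100 (r = 0.955), Cxcl12 (r = 0.952), Slco1a4 (r = 0.948) and Adcy4 (r = 0.948). These include Cxcl12, a chemokine made by endothelium, and Slco1a4, a transporter of the blood-brain barrier. Among the 10 genes themselves the closest pair was Acta2 and Tagln (r = 0.962), and the mean of the contractile genes followed that of the other 6 with r = 0.834. All genes were read in the same 10 libraries, and all of these values contain the difference between SAH and control.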

How the data were processed

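Total RNA of whole bilateral hippocampus (RNA integrity number above 9) was made into stranded, ribosomal RNA-depleted libraries and sequenced as paired 50-base reads. The authors aligned reads to mm9 with STAR (version not given in the sources used here) and deposited counts per gene from featureCounts 1.6.2 on UCSC gene models. Labels also name GRCh38, but file headers name mm9 models. Total counts ranged from 19743388 to 27254655 per library, and all 10 libraries entered the tests. The animal was the replicate, so p-values set group differences against the spread between these mice.

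Counts were tested in edgeR 4.0.16 (R 4.3.3) with the quasi-likelihood test, trimmed mean of M values scaling and a filter on low counts (minimum 10), which all 10 genes passed. SAH against pooled control used 2 groups, and pairwise contrasts used 1 fit of 3 groups. Adjusted p under 0.10 was called, after the study. The SE is the log2 fold change over the root of F. TPM used the deposited gene lengths. Similarity used log2 CPM with a prior count of 2. Alternatives were DESeq2 1.42.0, its size factors, library size alone, other filters, each control group alone, a threshold of 0.05, a prior count of 0.5 and each mouse left out. Only the test of SAH against pooled control was also run on simulated counts, not the fit of 3 groups, and its outcome is not reported here. Genes named from lists were those past the threshold in SAH against control, and otherwise up to 4 of the most abundant. Pdgfb, Srf, Kcnj8 and the microglia markers that did not pass were named outside this rule, after their values were seen. The members and lists were chosen with earlier results of these data known.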

Additional observations from a re-analysis of the deposited data

How the results depend on the processing

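Vtn, Acta2, Tagln and Myh11 passed in SAH against control in every alternative that kept all 10 mice or left out 1. With Sham mice alone as control 0 of the 10 genes passed in place of 4 (Vtn 0.39, Acta2 0.68, Tagln 0.84 and Myh11 0.82 on the log2 scale, adjusted p 0.186 to 0.426), and with Naive mice alone 3 did, without Myh11 (adjusted p = 0.112). The share of all tested genes that passed was not counted for either fit. With each mouse left out, 4 to 5 genes passed. For SAH against Sham, where 1 passed, DESeq2 called 4, no filter on low counts 2, and a fit without the Naive mice 0. With each mouse left out it was 0 to 3, namely 0 without SAH mouse 4 or Sham mouse 5, 6 or 7, and 3 without SAH mouse 3. For SAH against Naive, where 5 passed, a fit without the Sham mice called 3, and with each mouse left out it was 2 to 6, namely 2 without Naive mouse 8, 9 or 10.

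Direction changed only for genes that had not passed. Leaving out SAH mice 3 and 4 and Sham mouse 7 gave -0.15 for Abcc9, -0.043 for Notch3, 0.046 for Cx3cr1 and 0.068 for P2ry12 against control. With Naive mice alone as control, Kcnj8 was at 0.19 in place of -0.04 and P2ry12 at 0.024. With each mouse left out, the log2 difference ranged from -0.188 to 0.050 for Kcnj8, -0.117 to 0.052 for Cx3cr1, -0.093 to 0.042 for P2ry12 and -0.039 to 0.173 for Tmem119 against control, from -0.050 to 0.167 for Notch3 against Naive, and between Sham and Naive from -0.083 to 0.032 for Pdgfrb, -0.12 to 0.09 for Rgs5 and -0.054 to 0.287 for Myh11. Of the 10 genes most similar in pattern, 9 were shared with a prior count of 0.5. No paired analysis was possible because the groups share no animal number. Cnn1 had 3 to 19 counts a library, and the part of counting error in its spread was not tested.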
